A study of Homo sapiens with 12 samples.

Results

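Integrins are paired alpha and beta receptor chains that attach cells to the extracellular matrix, and laminins and collagens are among the matrix proteins that they bind. The 82 protein-coding genes of these families were taken by symbol from the 58676 genes of the deposited table: 26 integrin chains, 12 laminin chains and 44 collagen chains. The match used no measured value, but the families were chosen with earlier results of these data known. RNA had been sequenced from A549, an established human lung carcinoma line, as a control line and as KO1 and KO2, lines with a knockout of NFE2L1. Each line received DMSO vehicle or the proteasome inhibitor bortezomib at 200 nM, in both cases for 4 h. There were 2 libraries in each of the 6 groups. NFE2L1 encodes a transcription factor known for acting on proteasome genes when the proteasome is blocked, and the series title names the effect of its loss on expression as the question.

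A laminin is a trimer of 1 alpha, 1 beta and 1 gamma chain. In epithelia the laminin that holds the LAMA3 and LAMB3 chains lies under the cell and is bound by the integrin dimers of ITGA3 with ITGB1 and of ITGA6 with ITGB4, the latter within the hemidesmosome. Type IV collagens form the network of the basement membrane, COL7A1 forms the anchoring fibrils beneath it, and fibrillar collagens such as types I and V build the connective tissue. All of these chains pass through the endoplasmic reticulum, where collagen is hydroxylated and folded before export.

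Levels are given in FPKM, which divides fragments by gene length and by library size, so that genes can be compared per length. Differences were taken as log2(FPKM + 1), a scale on which low genes move less than their true ratio, and carry the standard error (SE) of the limma fit. A gene was called at a Benjamini-Hochberg adjusted p under 0.05 over the 12194 genes whose FPKM averaged 1 or more. Libraries are given in the order first, R2. The R2 library has that suffix in its title, and the first is R1 in the KO lines and carries no number in the control line, so first libraries of different lines are not paired by their labels. The main fit had no block. A fit with the title suffix as a block was an alternative, set beside it since the R2 libraries deviated together in these same data.

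The libraries held 13211608 to 23819258 assigned reads. The mitochondrial share of reads was 5.44% to 6.80% for first libraries and 12.3% to 19.3% for R2 libraries. NFE2L1 was at 72.7 and 151 FPKM in control vehicle, 8.45 and 14.8 in KO1 vehicle, and 18.6 and 33.6 in KO2 vehicle. Both KO lines were thus below the control line without overlap, at a log2 difference of the KO mean of -2.57 (limma, SE 0.46, adjusted p = 0.0662), and -2.73 with the block (SE 0.17, adjusted p = 0.000112). With bortezomib it was at 109 and 189 in the control line, 27.0 and 35.8 in KO1, and 36.7 and 50.8 in KO2. All 5 epithelial markers reached FPKM 1 and summed to 509 to 1801, against 0.377 to 3.94 for 6 fibroblast markers, 0.0160 to 0.240 for 4 endothelial and 0.204 to 3.73 for 5 leukocyte markers. The fibroblast sum averaged 3.30 in KO1 vehicle, 0.896 in KO2 vehicle and 0.518 in control vehicle, and of these markers LUM and THY1 reached FPKM 1. The epithelial sum averaged 783 in control vehicle, 1032 in KO1 and 1443 in KO2, and 816, 1212 and 1555 with bortezomib. In bulk RNA, fewer cells of a type and less RNA per cell cannot be told apart. The labels do not say whether a KO line is 1 clone or whether libraries came from separate cultures. P-values without the block thus measure the spread between these libraries. Those with the block measure only the spread left once a shift shared by libraries of the same suffix is removed. With 1 control line, loss of NFE2L1 and other differences between lines cannot be told apart.

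Upstream regions are shown because the results turn on the genes they precede: the region that COL4A5 shares with its divergent neighbour COL4A6, the gap between COL4A1 and COL4A2 for comparison, and the regions before a start of LAMB3 and of LAMA3, chains of 1 trimer whose levels parted. They are RefSeq sequence of GRCh38.p14, 5′ to 3′ on the named gene's strand, upstream of the annotated start. Capitals mark matches, on either strand, to TGACNNNGC, the core of the element bound by NFE2L1 and related factors, or to TGANTCA, the AP-1 element. A stretch of bases can match both.
COL4A5, chrX:108439588-108439837, plus strand: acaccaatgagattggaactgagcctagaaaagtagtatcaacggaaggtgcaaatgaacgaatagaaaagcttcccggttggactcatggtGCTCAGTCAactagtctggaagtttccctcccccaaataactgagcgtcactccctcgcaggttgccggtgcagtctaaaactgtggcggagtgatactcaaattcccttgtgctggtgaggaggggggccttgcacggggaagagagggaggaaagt
COL4A1 to COL4A2, chr13:110307158-110307283, plus strand: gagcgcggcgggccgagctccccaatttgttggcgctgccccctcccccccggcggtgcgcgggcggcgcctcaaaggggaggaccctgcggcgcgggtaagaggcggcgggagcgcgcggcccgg
LAMB3, chr1:209651375-209651624, minus strand: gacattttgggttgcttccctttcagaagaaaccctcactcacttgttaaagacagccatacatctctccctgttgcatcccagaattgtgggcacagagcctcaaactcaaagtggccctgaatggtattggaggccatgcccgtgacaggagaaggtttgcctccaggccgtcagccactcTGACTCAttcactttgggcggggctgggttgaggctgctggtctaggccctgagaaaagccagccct
LAMA3, chr18:23872770-23873019, plus strand: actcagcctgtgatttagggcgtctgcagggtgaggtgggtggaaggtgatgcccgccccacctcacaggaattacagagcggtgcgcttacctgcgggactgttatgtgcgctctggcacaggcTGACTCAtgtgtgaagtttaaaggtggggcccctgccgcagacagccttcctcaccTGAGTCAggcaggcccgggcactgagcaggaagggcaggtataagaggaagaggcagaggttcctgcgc
The COL4A5 match is TGACNNNGC read on the other strand, and the same bases lie in the COL4A6 window. Across windows of the 250 bases before a start, TGACNNNGC was in 4 of 36 windows of the expressed family genes (11.1%). These were COL4A5 and COL4A6 through the shared bases, ITGB1 and ITGB5. It was in 10.9% of all 35116 windows. TGANTCA was in 2 of 36 (5.56%; LAMB3 and LAMA3) and in 6.57% of all. For LAMB3 only the printed window held it, and the windows at the starts 209652425 and 209652329 held neither element. Windows were found for 26 of the 34 expressed genes. A match describes the letters and shows no binding.

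Of the 82 genes, 34 passed the filter on mean FPKM and were tested: 12 integrins, 8 laminins and 14 collagens. Another 10 stayed under that mean but reached FPKM 1 in some library, namely ITGA2B, ITGA7, ITGA10, ITGAX, ITGB6, COL4A4, COL8A2, COL17A1, COL21A1 and COL26A1. The remaining 38 never reached it, and COL19A1 was at 0 in all 12 libraries. ITGB1, the common beta chain, was the highest at a mean of 737 FPKM and made up 73.2% to 92.2% of all integrin beta FPKM. ITGA3, the laminin-binding alpha chain, followed at 168 and made up 25.4% to 56.3% of alpha FPKM. Among the highest laminins were LAMC1 (mean 104 FPKM), LAMB1 (79.5) and LAMA5 (72.6), and the highest collagens COL5A2 (79.2), COL7A1 (76.3), COL4A2 (45.3), COL18A1 (43.3) and COL5A1 (33.8). COL1A2, the partner of COL1A1 in type I collagen, was at most at 0.408 FPKM, and COL6A3, the third chain of classical type VI collagen, at most at 0.113.

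**Figure D1:**
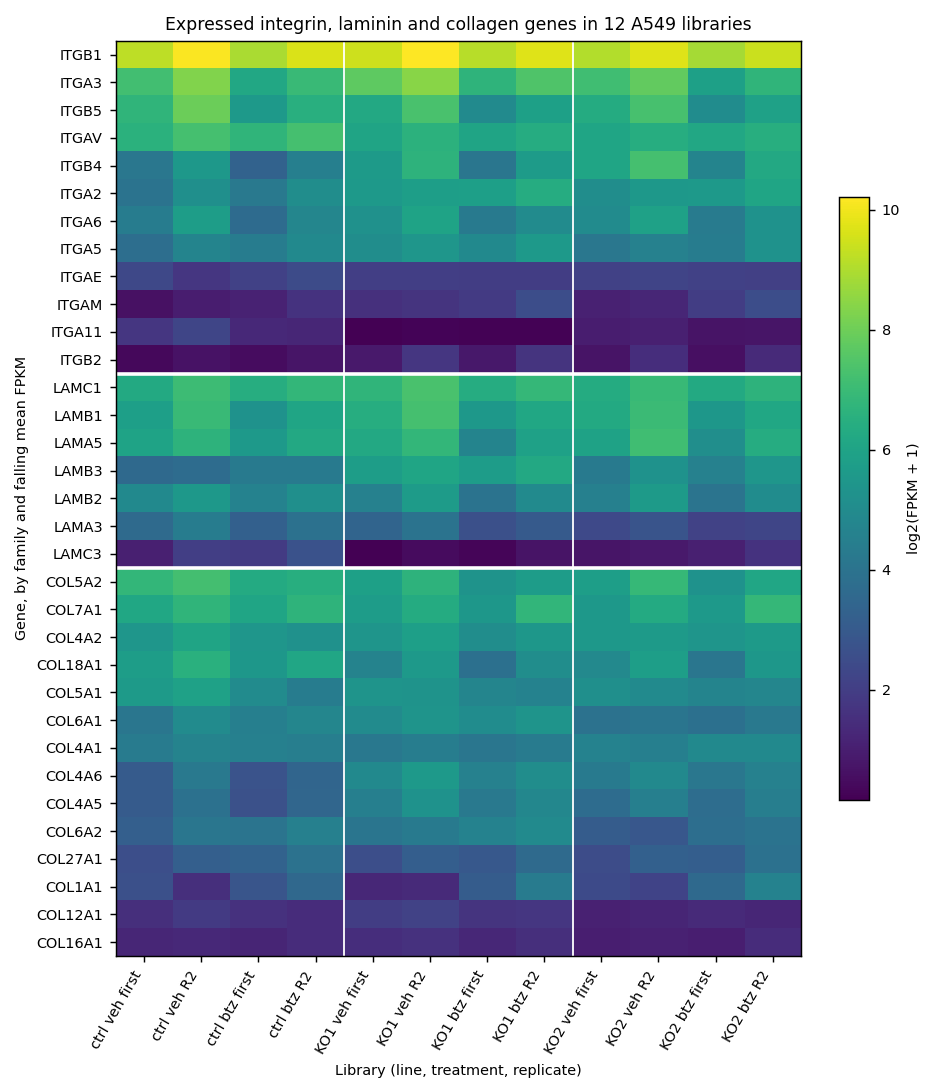
Heat map of log2(FPKM + 1) for expressed genes of the 3 families (rows, by family and falling mean) in the 12 libraries (columns; ctrl, control line; veh, vehicle; btz, bortezomib; first and R2, the replicates). ITGB1 is the brightest row, and ITGA11 and LAMC3 have their lowest values in the KO1 columns.

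The R2 libraries were higher than their partners for most of these genes. FPKM was higher in R2 in 6 of 6 groups for 25 of 34 genes, a pattern held by 25.2% of the 12194 genes tested, and lower in 6 of 6 for 0, a pattern held by 44.2%. The median log2 difference of R2 from first lay between 0.52 and 0.72 over the 6 groups, against -0.34 to -0.11 over all genes tested. The expressed family genes were also longer, with a median deposited length of 8164 bases against 4574. The part of length or of the mitochondrial share in this difference was not tested.

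Bortezomib was compared with vehicle in each line. ITGA3, ITGA6, ITGB4, ITGB5 and LAMB1, which encode laminin receptors, a vitronectin receptor chain and a laminin beta chain, fell in all 3 lines in the fit with the block, as did COL5A2. COL27A1, COL6A2 and ITGAM rose in all 3, although the KO1 call of COL6A2 depended on the form of the block. Of these rises, only COL27A1 in the control line and ITGAM in KO2 stayed called whichever library was left out. Without the block limma called 0 of 34 for the control line, against 0.467% of all genes. It called 0 for KO1 (0.238%) and 0 for KO2 (0.32%). Unadjusted p was under 0.05 for 2, 2 and 3 of 34, against 1498, 1153 and 1169 of all 12194 genes. Voom (limma's fit for counts, here on recovered reads) without the block also called 0 of 34 in each line.

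With the block 16 of 34 were called in the control line: 5 higher (14.7% against 16.1% of all genes) and 11 lower (32.4% against 16.4%). In KO1 4 were higher (11.8% against 13.9%) and 11 lower (32.4% against 13.8%). In KO2 6 were higher (17.6% against 12.7%) and 9 lower (26.5% against 14.4%). The median log2 change of the 34 genes was -0.26, -0.23 and -0.07 in these lines, against -0.01, 0.00 and -0.02 over all genes. Counted by pairs of libraries with the same title suffix, or both with none, 13 of 34 were lower with bortezomib in 6 of 6 pairs (38.2% against 23.8% of all genes) and 5 were higher (14.7% against 24.8%).

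**Figure D2:**
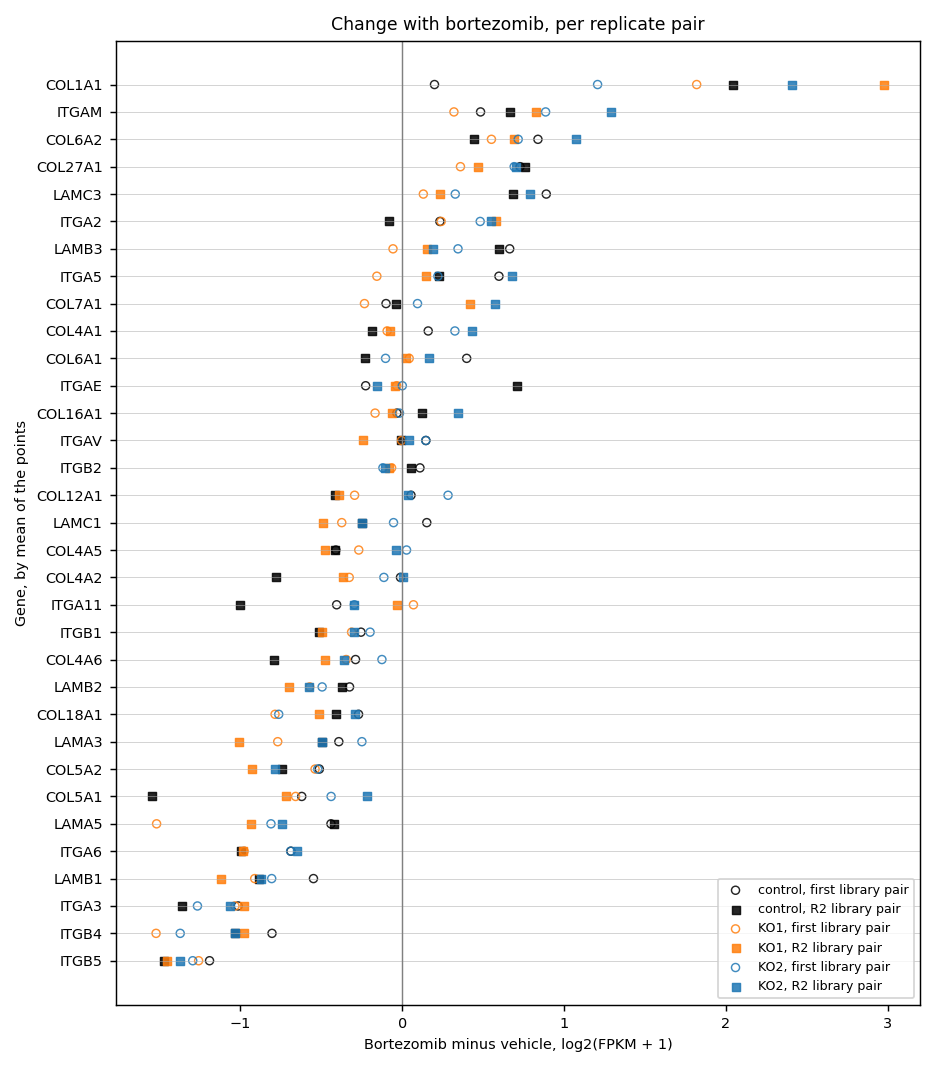
Bortezomib minus vehicle on the log2(FPKM + 1) scale (x axis) for expressed genes of the 3 families (y axis), as 1 point per pair of libraries (colours, lines; open circles, first libraries; squares, R2). All 6 points lie below 0 for ITGB5, ITGB4, ITGA3, LAMB1 and ITGA6, and all 6 above 0 for COL1A1, ITGAM, COL6A2, COL27A1 and LAMC3.

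Among the receptors, ITGB5, which pairs with ITGAV to bind vitronectin, showed the most even fall (chromosome 3, 124761948 to 124901418). In the control line it was at 106 and 249 FPKM with vehicle and 45.9 and 89.2 with bortezomib. The values were 73.3 and 161 against 30.1 and 58.3 in KO1, and 81.0 and 153 against 32.4 and 58.7 in KO2. Each bortezomib library was below its vehicle partner, and in every line the bortezomib and vehicle libraries did not overlap. The log2 changes were -1.33 (control), -1.36 (KO1) and -1.33 (KO2), with block SE 0.15 and limma adjusted p of 0.000394, 0.000482 and 0.000446.

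ITGA3 (chromosome 17, 50055968 to 50090481) was at 145 and 318 FPKM in control vehicle and 71.2 and 123 with bortezomib. It was at 211 and 346 against 103 and 176 in KO1, and at 139 and 225 against 57.2 and 107 in KO2. The vehicle and bortezomib libraries did not overlap in any line. With the block the log2 changes were -1.19, -1.01 and -1.17 (limma, SE 0.15 each, adjusted p 0.000677, 0.00193 and 0.000895). The share of ITGA3 in alpha-chain FPKM went from 48.6% and 53.6% to 30.1% and 32.8% in the control line, and the other lines moved the same way, to 36.8% and 40.7% in KO1 and to 25.4% and 30.5% in KO2.

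The hemidesmosome receptor chains were lower too. ITGB4 (chromosome 17, 75721328 to 75757818) was at 16.6 and 45.1 FPKM in control vehicle against 9.06 and 21.5 with bortezomib. In KO1 it was at 48.6 and 101 against 16.3 and 50.5, and in KO2 at 66.0 and 151 against 24.9 and 73.2. Each bortezomib library was below its own partner while the groups overlapped across replicates, and the block changes were -0.92, -1.25 and -1.20 (limma, SE 0.17, adjusted p 0.00423, 0.00137 and 0.0015). ITGA6, its partner, was at 19.8 and 53.8 against 11.9 and 26.5 in the control line, at 36.6 and 62.9 against 18.1 and 31.3 in KO1, and at 31.4 and 60.1 against 19.1 and 37.9 in KO2. Its changes with the block were -0.84, -0.98 and -0.67 (limma, SE 0.14, adjusted p 0.00278, 0.00183 and 0.00962).

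ITGB1 did not pass the test in any line. It was at 587 and 1150.5 FPKM in control vehicle and 492 and 805 with bortezomib, at 698 and 1186 against 562 and 841 in KO1, and at 533 and 842 against 464 and 683 in KO2. All 6 pairs were lower with bortezomib, by log2 -0.38, -0.40 and -0.25 (limma with the block, adjusted p 0.0714, 0.0678 and 0.234). Its share of beta-chain FPKM was 82.5% and 79.5% in control vehicle and 89.7% and 87.8% with bortezomib. ITGAV, the alpha chain of RGD-binding dimers, had log2 changes of 0.07, -0.12 and 0.09, none of them called. ITGAM, an alpha chain known from leukocytes, was low but rose: 0.541 and 0.963 against 1.15 and 2.11 FPKM in the control line, 1.93 and 2.23 against 2.66 and 4.74 in KO1, and 1.15 and 1.35 against 2.97 and 4.73 in KO2. The bortezomib libraries were above the vehicle libraries without overlap in each line, at log2 0.57, 0.57 and 1.09 with the block (limma, SE 0.18, adjusted p 0.0356, 0.0404 and 0.00288). The leukocyte markers PTPRC, CD3E and TYROBP stayed at or under 0.0998 FPKM in all libraries, and CD14 was at 2.38 and 3.12 in control vehicle and 0.339 and 0.591 with bortezomib. CD79A, the fifth marker, was at 0.223 and 0.142 in control vehicle and 0.284 and 0.530 with bortezomib, its highest library, and its part in the rise of ITGAM was not tested.

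Among laminins LAMB1 fell in all 3 lines and LAMA5 in the KO lines with the block, while LAMC1 was called in none. LAMB1 was at 55.5 and 124 FPKM in control vehicle and 37.6 and 66.7 with bortezomib, at 85.6 and 151 against 45.0 and 69.1 in KO1, and at 76.5 and 129 against 43.3 and 70.1 in KO2. It fell by 0.72, 1.02 and 0.84 on the log2 scale with the block (limma, SE 0.15, adjusted p 0.00639, 0.00175 and 0.00398), and in both KO lines the groups did not overlap. LAMA5 (62.7 and 101 against 45.9 and 74.9 FPKM in the control line) was called in the KO lines: 73.5 and 113 against 25.0 and 58.6 in KO1, and 60.6 and 139.6 against 34.1 and 83.1 in KO2. Its block changes were -0.43, -1.23 and -0.78 (limma, SE 0.18, adjusted p 0.0958, 0.00185 and 0.0138). LAMA5 shares exon bases with ADRM1, a proteasome ubiquitin receptor gene on the opposite strand (mean 23.9 FPKM), and LAMB1 with DLD (19.9). Whether counting used strand is not given in the sources used here, so reads of such pairs cannot be told apart.

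LAMC1, the most abundant laminin, was at 75.4 and 133 FPKM in control vehicle and 83.9 and 112 with bortezomib, at 106 and 162 against 81.8 and 115 in KO1, and at 79.4 and 121 against 76.4 and 102 in KO2. None of its changes was called (block log2 -0.05, -0.43 and -0.15). LAMB2 was called lower in KO1 (-0.64) and KO2 (-0.53) and LAMA3 in the control line (-0.44) and KO1 (-0.89). LAMC3 rose in the control line by 0.79 (limma with the block, SE 0.18, adjusted p = 0.0103), from levels given below. LAMC3 lost this call without any 1 of the 4 control libraries. Its KO2 change of 0.56 passed narrowly (adjusted p = 0.0457), but was lost in 11 of 12 fits without 1 library (adjusted p up to 0.312) and with unnumbered libraries as R1 (0.0886).

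Among collagens COL1A1 had the largest change, an increase in the KO lines (chromosome 17, 50183289 to 50201632). In KO1 it went from 1.42 and 1.56 FPKM to 7.55 and 19.1, and in KO2 from 4.32 and 3.59 to 11.3 and 23.3. In the control line it was at 5.18 and 1.85 with vehicle and 6.10 and 10.7 with bortezomib. No bortezomib library overlapped its line's vehicle libraries. The log2 changes were 2.40 in KO1 and 1.81 in KO2 with the block (limma, SE 0.43, adjusted p 0.00454 and 0.0162), and 1.12 in the control line was not called (adjusted p = 0.0762). The difference between KO lines and control line was 0.98 (SE 0.53, interaction adjusted p = 0.559), so the data do not show that the responses differed.

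COL27A1, a fibrillar collagen, rose from 4.98 and 8.13 to 8.89 and 14.5 FPKM in the control line, from 4.89 and 8.07 to 6.55 and 11.5 in KO1, and from 4.59 and 8.37 to 8.02 and 14.3 in KO2. Its block changes were 0.74, 0.41 and 0.70 (limma, SE 0.12, adjusted p 0.0024, 0.0343 and 0.00403). COL6A2 was at 8.18 and 16.2 against 15.4 and 22.4 FPKM in the control line, at 15.8 and 18.3 against 23.6 and 30.1 in KO1, and at 7.52 and 6.49 against 12.9995 and 14.8 in KO2. It rose by 0.64, 0.62 and 0.90 (limma with the block, SE 0.17, adjusted p 0.0182, 0.0237 and 0.00536). The KO1 call was lost without any 1 of the 4 KO1 libraries (adjusted p up to 0.204) and with the unnumbered control libraries put on the level of R1 (0.0581). Its neighbour COL6A1 had log2 changes of 0.08, 0.03 and 0.03 and was not called. The COL6A1 to COL6A2 ratio was 1.94 to 2.42 in the 6 vehicle libraries and 1.04 to 1.41 in the 6 bortezomib libraries.

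The type V chains were lower. COL5A1 went from 49.2 and 59.5 to 31.6 and 19.7 FPKM in the control line, from 40.6 and 39.3 to 25.4 and 23.5 in KO1, and from 34.5 and 30.8 to 25.2 and 26.4 in KO2. No group overlapped its partner group, and the block called it in the control line (-1.08; limma, SE 0.20, adjusted p = 0.00442) and KO1 (-0.69; adjusted p = 0.0337), not in KO2 (-0.33; adjusted p = 0.262). COL5A2 was at 112 and 147 against 78.1 and 87.4 FPKM in the control line, at 57.2 and 100.4 against 39.0 and 52.2 in KO1, and at 55.2 and 117 against 38.2 and 67.3 in KO2. It was called in each (block log2 -0.63, -0.74 and -0.65; limma, SE 0.17, adjusted p 0.0239, 0.0147 and 0.0244).

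COL7A1 was at 70.4 and 107 FPKM in control vehicle and 65.6 and 104 with bortezomib, at 51.5 and 80.6 against 43.6 and 108 in KO1, and at 45.0 and 77.2 against 48.1 and 115 in KO2. It was called in no line, and neither was COL4A2 at 42.6 and 64.4 against 42.3 and 37.1, 41.9 and 56.1 against 33.2 and 43.3, and 45.2 and 48.2 against 41.7 and 48.3. COL18A1, the source of endostatin, was called lower in KO1 (-0.65) and KO2 (-0.53).

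With unnumbered libraries as R1, the calls of LAMA3 in the control line (adjusted p = 0.0654) and COL18A1 in KO2 (0.0567) were also lost. Leaving out libraries removed many calls. With any 1 of the 12 libraries left out of the block fit, ITGA3, ITGB5 and COL27A1 stayed called in the control line, ITGA3, ITGB5, ITGA6, ITGB4, LAMA3, LAMA5, LAMB1 and COL1A1 in KO1, and ITGA3, ITGB5, ITGB4 and ITGAM in KO2. Without the control vehicle R2 library, or without the control bortezomib R2 library, the control line kept 4 calls. KO1 kept 9 and 8 without its first or R2 bortezomib library, and KO2 kept 7 and 5 without its first or R2 vehicle library and 8 without its first bortezomib library.

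Next, the KO lines were set against the control line. LAMB3, ITGB4, COL4A5, COL4A6 and ITGB2 were higher in the KO lines, and ITGA11, LAMC3, LAMA3, COL18A1 and ITGAV lower, in vehicle and again in bortezomib, in the fit with the block. These are calls on the mean of both KO lines. Line by line with the block, limma did not call LAMA3 (adjusted p = 0.141) or ITGAV (0.055) in KO1 vehicle, COL18A1 (0.108) or COL4A5 (0.0779) in KO2 vehicle, or ITGA11 (0.144) or ITGB2 (0.0965) in KO2 bortezomib. Further calls in bortezomib included ITGA2 and ITGAM among the higher genes and ITGB5 among the lower. Line by line in bortezomib, ITGA2 was called in both KO lines, and ITGAM and ITGB5 in neither. Without the block limma called 1 of 34 in vehicle, ITGA11 (0.344% of all genes were called), and 0 in bortezomib (0.164%), where unadjusted p was under 0.05 for 9 of 34 and for 697 of all 12194 genes. Voom without the block also called 1 and 0.

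With the block 5 of 34 were higher (14.7% against 3.42% of all genes) and 5 lower (14.7% against 2.76%) in vehicle. In bortezomib 8 were higher (23.5% against 3.9%) and 6 lower (17.6% against 3.76%). The median log2 difference was 0.03 and -0.01, against 0.05 and 0.06 over all genes. This block ties KO to control libraries only through R2, the 1 suffix that both share. First libraries entered only through differences among the control groups or among the KO groups. These calls thus rest on the R2 libraries for the level of KO against control. Each of the 10 vehicle calls was lost without the control vehicle R2 library. Each of the 14 bortezomib calls was lost without the control bortezomib R2 library. With the unnumbered control libraries on the level of R1, which the labels do not state, 14 were called in each treatment, 9 of them shared with the 10 vehicle calls and 13 with the 14 bortezomib calls. The call not shared was ITGB2 in both (0.66 in vehicle and 0.49 in bortezomib; limma, adjusted p 0.0687 and 0.134). In vehicle the block by title suffix called 6 without KO2 vehicle R2. In bortezomib it called 6 without KO1 bortezomib R2 and 9 without either control vehicle library, the control bortezomib first library or KO2 bortezomib R2. The form with R1 called 9 in vehicle when 1 control vehicle or 1 KO2 vehicle library was left out, and 8 in bortezomib without the control bortezomib first library. In that form COL4A5, COL4A6, ITGA11, ITGB4 and LAMB3 stayed called in vehicle whichever of the 12 libraries was left out.

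Without any pairing, the 4 KO vehicle libraries lay above both control libraries for 5 of 34 genes, COL4A6, ITGAM, ITGB2, ITGB4 and LAMB3 (14.7% against 5.65% of all genes). They lay below both for COL5A1, ITGA11 and LAMC3 (8.82% against 3.38%). In bortezomib they were above for 6, among them COL4A5, COL4A6, ITGA2, ITGAM and LAMB3 (17.6% against 7.9%), and below for 6, COL5A2, ITGA11, ITGAE, ITGAV, LAMA3 and LAMC3 (17.6% against 6.66%). Of the genes counted here, ITGA11, LAMC3 and ITGB2 passed the filter largely through the groups where they were high. Their part in these shares, and in those with the block, is thus no independent support. ITGAE (mean 3.30 FPKM) shares exon bases with HASPIN on the opposite strand (mean 5.78 FPKM), and reads of this pair cannot be told apart either.

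**Figure D3:**
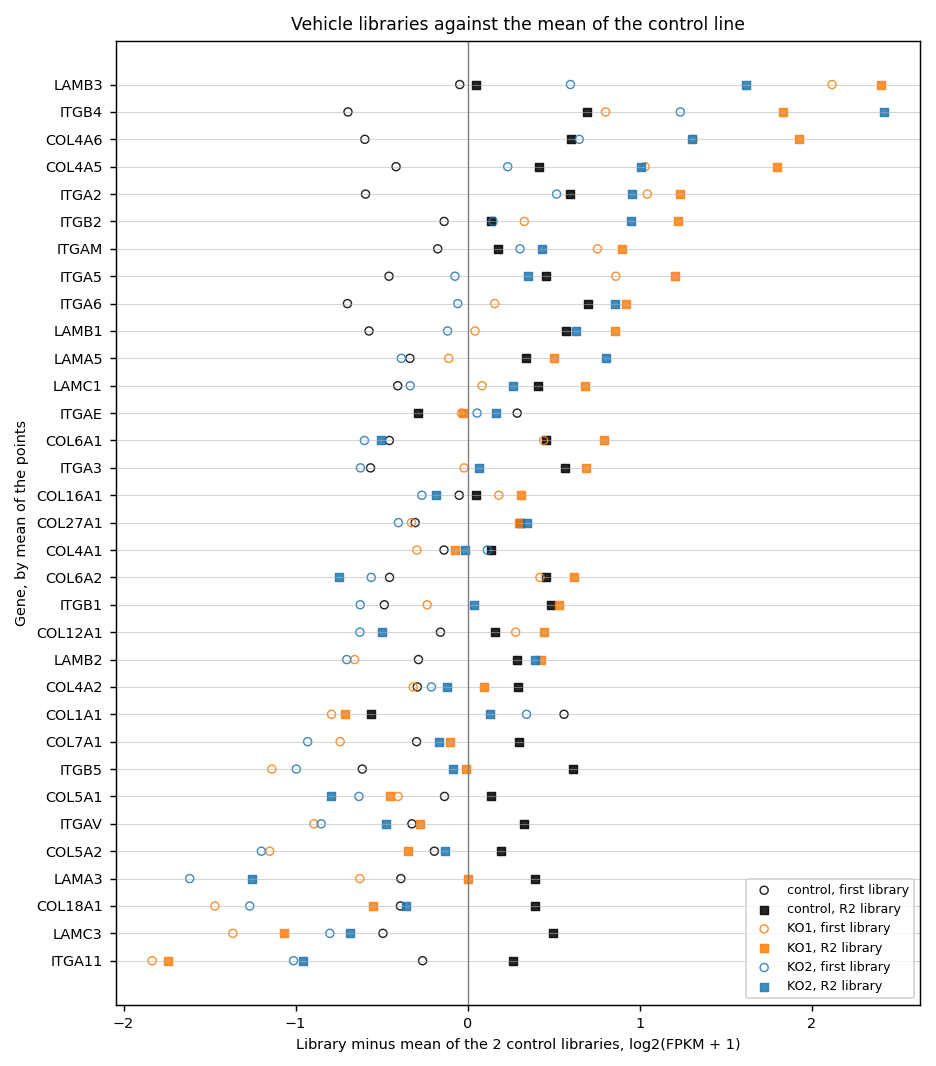
Each vehicle library minus the mean of both control vehicle libraries on the log2(FPKM + 1) scale (x axis) for expressed genes of the 3 families (y axis; colours, lines; open circles, first libraries; squares, R2). The KO points of LAMB3, ITGB4 and COL4A6 lie right of both control points, and those of ITGA11 and LAMC3 left of both.

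ITGA11, an alpha chain that binds fibrillar collagen, had the clearest loss (ENSG00000137809, chromosome 15, 68296533 to 68432162). It was at 2.33 and 3.78 FPKM in control vehicle, 0.119 and 0.193 in KO1 and 0.978 and 1.06 in KO2, from 602 and 769, 18 and 39, and 229 and 221 reads. With bortezomib it was at 1.51 and 1.39, 0.174 and 0.166, and 0.611 and 0.671. No KO library reached a control library of the same treatment. The difference of the KO mean in vehicle was -1.39 (limma, SE 0.21, adjusted p = 0.0297) without the block and -1.47 with it (SE 0.21, adjusted p = 0.00448), while voom on reads gave -2.89 (adjusted p = 0.0104). Without the block the call was lost when any 1 library was left out (adjusted p 0.066 to 0.409, the latter without the control vehicle R2 library). ITGA11 (mean 1.08), LAMC3 (1.54) and ITGB2 (1.05) passed the filter largely through the groups where they were high.

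LAMB3 and LAMA3, chains of 1 laminin, parted. LAMB3 (chromosome 1, 209614870 to 209652466) was at 11.2 and 11.97 FPKM in control vehicle, 53.5 and 65.4 in KO1 and 18.0 and 37.6 in KO2. Its bortezomib libraries held 18.3 and 18.6 in the control line, 51.3 and 73.0, and 23.1 and 43.1. Every KO library was above the control libraries of its treatment, and the difference of the KO mean with the block was 1.99 in vehicle and 1.52 in bortezomib (limma, SE 0.20, adjusted p 0.000844 and 0.0033). R2 against R2 in vehicle, KO1 was 5.47-fold and KO2 3.14-fold above control. The epithelial marker sum, averaged by group, was also higher in the KO lines. In vehicle KRT8 was at 285 and 133 FPKM in the control line, 436 and 238 in KO1 and 703 and 439 in KO2. KRT18 was at 194 and 147, 353 and 212, and 586 and 419 in that order. KRT7 was not higher (574 and 223, 565 and 243, and 496 and 222), and EPCAM and CDH1 reached at most 10.6 and 9.53. The part of these markers in the LAMB3 and ITGB4 differences was not tested.

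LAMA3 (chromosome 18, 23689443 to 23955066) moved the other way. It was at 11.3 and 20.1 FPKM in control vehicle, 9.43 and 15.1 in KO1 and 4.26 and 5.75 in KO2. With bortezomib it was at 8.37 and 13.9, 5.12 and 7.01, and 3.42 and 3.79. The KO2 libraries were below both control libraries in each treatment, and KO1 overlapped the control line in vehicle but not in bortezomib. The KO mean differed by -1.05 and -1.24 with the block (limma, SE 0.16, adjusted p 0.00586 and 0.00279). The ratio of LAMA3 to LAMB3 FPKM was 1.01 and 1.68 in control vehicle and 0.459 and 0.748 in control bortezomib. It was between 0.0881 and 0.237 in the 8 KO libraries.

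**Figure D4:**
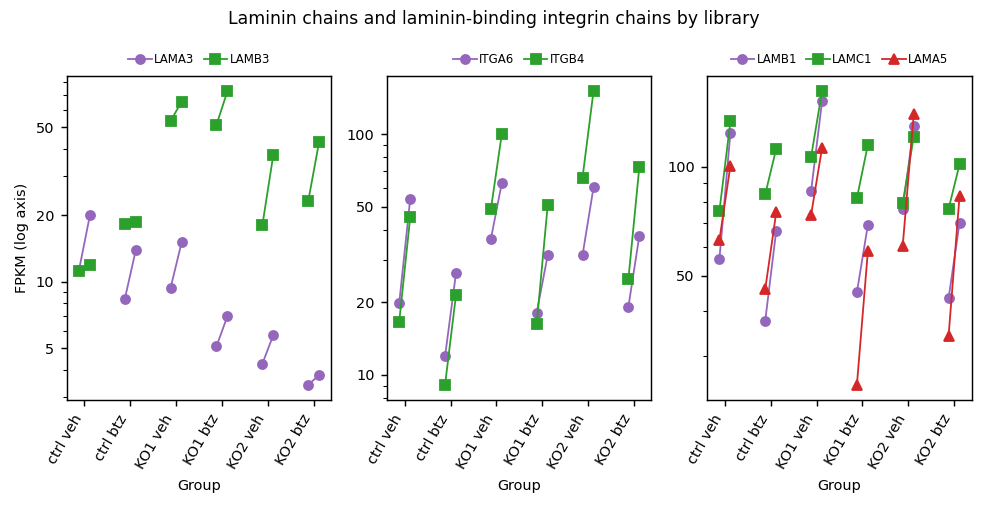
FPKM on a log axis of LAMA3 and LAMB3 (left), the chains of the hemidesmosome integrin (middle) and LAMB1, LAMC1 and LAMA5 (right) in the 6 groups, with first and R2 libraries of a group joined by a line. In control vehicle LAMA3 and LAMB3 were at 11.3 and 11.2 in the first library, and at 20.1 and 11.97 in R2. LAMA3 lies below LAMB3 in both control bortezomib libraries, and further below in every KO group.

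LAMC3, a low-level gamma chain, was at 1.06 and 3.07 FPKM in control vehicle, 0.123 and 0.383 in KO1 and 0.660 and 0.800 in KO2. With bortezomib it was at 2.81 and 5.53, 0.229 and 0.628, and 1.08 and 2.11. No KO library reached the control libraries of its treatment, and the differences were -1.24 and -1.66 with the block (limma, SE 0.19, adjusted p 0.00643 and 0.00195).

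ITGB4 levels, given above, were higher in all 4 KO vehicle libraries than in either control vehicle library. The KO mean differed by 1.60 in vehicle and 1.29 in bortezomib with the block (limma, SE 0.18, adjusted p 0.00154 and 0.00463). Its partner ITGA6 was not called (0.27 and 0.29, adjusted p 0.346 and 0.292). The ITGA6 to ITGB4 ratio was 1.19 to 1.31 in the 4 control libraries and 0.397 to 1.11 in the 8 KO libraries.

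ITGA2, the collagen-binding partner of ITGB1, was at 14.7 and 34.8 FPKM in control vehicle, 47.9 and 54.9 in KO1 and 32.9 and 45.0 in KO2. With bortezomib the values were 17.5 and 32.8, 56.7 and 82.5, and 46.4 and 66.2. It was called in bortezomib (1.02 with the block; limma, SE 0.16, adjusted p = 0.00783) and missed the threshold in vehicle (0.63, adjusted p = 0.0534), where the form with R1 called it (0.94, adjusted p = 0.0138). ITGAV was at 95.3 and 149.9 in control vehicle, 63.9 and 98.3 in KO1 and 65.8 and 85.8 in KO2, and at 106 and 149, 63.7 and 82.9, and 72.9 and 88.4 with bortezomib. Its differences were -0.70 and -0.79 (limma with the block, SE 0.15, adjusted p 0.03 and 0.0188), with no overlap in bortezomib. ITGB2, the beta chain of leukocyte integrins and the partner of ITGAM, was at 0.315 and 0.590 FPKM in control vehicle, 0.816 and 2.38 in KO1 and 0.601 and 1.80 in KO2, with no overlap. Bortezomib libraries held 0.418 and 0.648, 0.735 and 2.19, and 0.473 and 1.60, and the KO2 first library was within the control range. Its vehicle difference was 0.96 with the block (limma, SE 0.18, adjusted p = 0.0151), and it was not called in the form with R1.

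The divergent pair COL4A5 and COL4A6 was higher in the KO lines on both sides of the shared region printed above; 379 bases lie between their RefSeq starts on chromosome X. COL4A5 was at 7.38 and 13.9 FPKM in control vehicle, 21.8 and 37.8 in KO1 and 12.1 and 21.5 in KO2, and with bortezomib at 5.30 and 10.2, 18.0 and 26.9, and 12.4 and 20.8. COL4A6 was at 7.18 and 17.7, 29.7 and 46.0, and 18.4 and 29.6 in vehicle, and at 5.70 and 9.82, 23.1 and 32.7, and 16.8 and 22.8 with bortezomib. Except for the KO2 first library of COL4A5 in vehicle, every KO library was above both control libraries of its treatment. With the block the vehicle differences were 0.95 for COL4A5 (limma, SE 0.14, adjusted p = 0.00502) and 1.10 for COL4A6 (SE 0.17, adjusted p = 0.0064), and in bortezomib 1.18 and 1.31 (adjusted p 0.00204 and 0.00283). The ratio of COL4A5 to COL4A6 FPKM stayed between 0.659 and 1.04 in the 12 libraries.

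COL4A1 and COL4A2, the other divergent type IV pair, with 126 bases between the RefSeq starts on chromosome 13, were not called, and COL4A1 stayed within 16.3 to 29.7 FPKM. Their KO differences with the block were -0.08 and -0.10 in vehicle and 0.08 and 0.09 in bortezomib. The 2 type IV pairs thus differed in their calls, and that difference itself was not tested. COL18A1 was at 53.0 and 91.8 FPKM in control vehicle, 24.6 and 47.4 in KO1 and 28.4 and 54.2 in KO2, and at 43.8 and 68.8, 13.8 and 32.9, and 16.3 and 44.1 with bortezomib. Its differences were -0.72 and -0.96 with the block (limma, SE 0.17, adjusted p 0.0401 and 0.0119). It shares exon bases with SLC19A1 on the opposite strand (mean 5.90 FPKM).

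**Figure D5:**
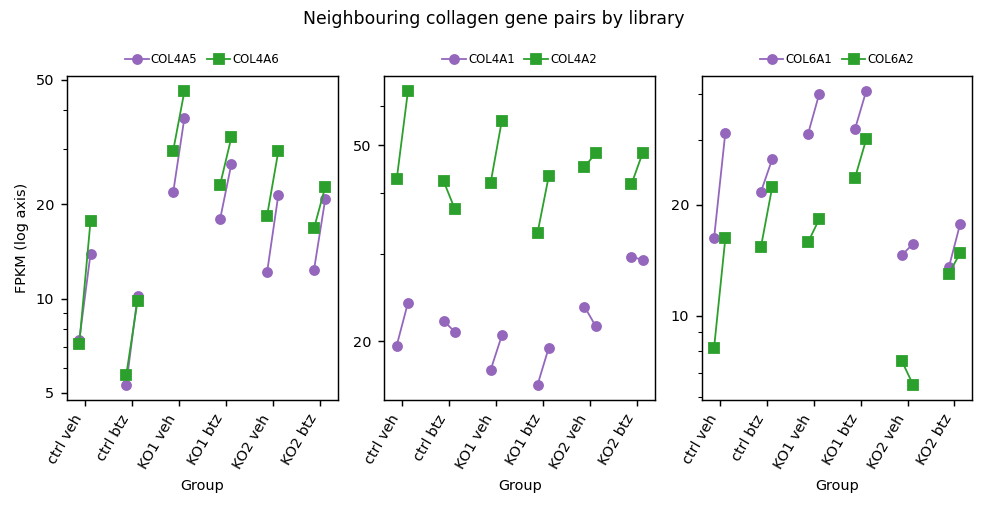
FPKM on a log axis of the neighbouring pairs COL4A5 and COL4A6 (left), COL4A1 and COL4A2 (middle) and COL6A1 and COL6A2 (right) in the 6 groups, with first and R2 libraries joined by a line. The left pair lies higher in the KO groups, and the right pair lies higher in KO1 than in KO2.

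KO1 and KO2 were compared with each other in vehicle. Without the block limma called 0 of 34 (0.0656% of all genes), with 6 of 34 and 286 of 12194 at an unadjusted p under 0.05, and 0 of 34 by voom. With the block 7 were higher in KO1 (20.6% against 1.41% of all genes) and 0 lower (0% against 1.59%). The type VI pair led: COL6A1 was at 31.1 and 40.0 FPKM in KO1, 14.6 and 15.7 in KO2 and 16.2 and 31.4 in the control line, and COL6A2 at 15.8 and 18.3, 7.52 and 6.49, and 8.18 and 16.2. Both differed by 1.17 (limma with the block, SE 0.17, adjusted p 0.00941 and 0.00814). The others were LAMB3 (1.15), LAMA3 (1.12), COL12A1 (0.92), ITGA5 (0.89) and COL4A5 (0.79).

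ITGA5, the fibronectin receptor alpha chain, was at 33.3 and 42.6 FPKM in KO1 against 16.9 and 23.1 in KO2 (limma with the block, SE 0.17, adjusted p = 0.0294). COL12A1, a collagen that lies on fibril surfaces, was at 2.93 and 3.41 against 1.10 and 1.29 (SE 0.17, adjusted p = 0.0222). For all 7 genes both KO1 libraries lay above both KO2 libraries, for COL4A5 narrowly (21.8 in KO1 first against 21.5 in KO2 R2). The fibroblast marker THY1 was at 2.01 and 2.51 in KO1 vehicle and 0.102 and 0.193 in KO2 vehicle. PDGFRA went the other way, at 0.0222 and 0.00553 in KO1 and 0.0763 and 0.0694 in KO2. LUM overlapped, at 0.575 and 1.40 against 0.401 and 0.863, and DCN, PDGFRB and FAP stayed at or under 0.134 in all libraries. The part of these markers in the differences of the 7 genes was not tested. None of the 7 calls held when each library in turn was left out, and 4 calls in this comparison were left without KO1 vehicle first, 1 without KO1 vehicle R2, 1 without KO2 vehicle first and 0 without KO2 vehicle R2.

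The interaction, whether the bortezomib response differed between KO lines and control line, called 0 of 34 without the block (0% of all genes) and 0 with it (0%). With the block 4 of 34 had an unadjusted p under 0.05 in limma, among them COL5A1 (0.57), LAMA5 (-0.57) and ITGA11 (0.56), against 1305 of 12194 genes. Voom called 0 of 34 without the block, where it called 0 of all genes, and 0 of 34 with it, where it called 123 of 12194.

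Related genes were taken from lists chosen for function, and their counts stand against the shares of all genes called with the block. Those were 16.4%, 13.8% and 14.4% lower and 16.1%, 13.9% and 12.7% higher with bortezomib (control, then KO1, then KO2), and 3.42% higher and 2.76% lower for the KO lines in vehicle. Of 24 adaptor and focal adhesion genes 21 were tested, and with the block 8 were lower and 1 higher with bortezomib in the control line, against 4 lower and 2 higher in each KO line. The list's median in the control line was -0.27, against -0.01 over all genes. TNS2 and TNS3, tensins that bind integrin tails, led with -1.25 and -1.33 in the control line. In the KO lines in vehicle 2 were higher, TNS2 (1.28) and PXN (1.14), and 1 lower, FLNA (-0.81). Of 6 hemidesmosome and tetraspanin genes 4, 2 and 2 were lower with bortezomib in that order of lines (control median -0.57) and 0 were higher, and 0 were called for the KO lines. CD9, a tetraspanin, fell by 1.31, 1.28 and 1.47. Of 10 basement membrane partners, 9 tested, 4, 5 and 3 were lower and 0 higher (control median -0.15), among them the laminin receptor DAG1 (-1.26, -1.40 and -1.26), AGRN (-1.08, -1.23 and -1.31) and, in the control line, NTN4 (-1.35).

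Of 30 collagen-processing genes, 23 tested, 3, 3 and 6 were higher with bortezomib and 6, 3 and 5 lower (control median -0.25). The collagen prolyl hydroxylase subunit P4HA2 rose by 1.52, 1.65 and 2.25, the collagen chaperone SERPINH1 by 1.48, 1.62 and 1.90, and P3H4, which acts in collagen hydroxylation, changed by -1.46, -1.18 and -1.19. In the KO lines in vehicle 0 of the 23 were higher and 4 lower. Among them P4HA3 (-1.95; limma, SE 0.24, adjusted p = 0.0148) was called without the block too, at 17.4 and 17.3 FPKM in the control line, 3.04 and 3.25 in KO1 and 5.37 and 3.63 in KO2. Of the 9 basement membrane partners 2 were higher and 1 lower there. NID1, which links laminin to type IV collagen, was at 4.91 and 6.41 in the control line, 15.9 and 18.2 in KO1 and 21.6 and 24.3 in KO2 (1.65 without the block; limma, SE 0.26, adjusted p = 0.0334). Of the 10 tested other ligands and receptors, out of 13 found, 1 was higher and 4 lower, with CYR61 at -1.74 and CTGF at -1.35 with the block. With bortezomib 1, 2 and 2 were higher and 2, 3 and 3 lower (control median -0.32), with THBS1 at -1.13, -1.29 and -1.14.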

How the data were processed

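RNA sequencing libraries were grouped by the genotype and treatment in the labels. The authors deposited FPKM for every gene. The submitters' processing notes name CASAVA, STAR 2.5, HTSeq 0.6.1, DESeq2 and the build hg19, with no roles; the strand setting is not given in the sources used here. Of the deposited genes 95.2%, and 69 of the 82 family genes, had their GENCODE 29 (GRCh38) position; gene positions printed are the table's. Whole reads were recovered for 100% of values (tolerance 0.01) and gave the depths.

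The filter, a mean of 1 FPKM, left 12194 genes. These were fitted on log2(FPKM + 1) by limma 3.58.1 (R 4.3.3; moderated variances with a trend), with 1 mean per group, all 12 libraries and a threshold of 0.05 on the adjusted p. The second fit added the title suffix (R1, R2 or none) as a block. Pairing came from the titles and was checked by the correlation across genes of the R2 minus first difference between groups, which was 0.696 to 0.89 over 15 pairs of groups (median 0.811) and at least 0.805 over the 6 pairs of KO groups. With 2 against 2 libraries an exact permutation test cannot go under 0.333. Alternatives were a block with unnumbered libraries as R1, a pseudocount of 0.1, no filter, a common FPKM sum, quantile normalization, voom, and each library left out; leaving libraries out of the blocked fits was added after seeing the data.

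The genes, the 5 related lists (adaptors and focal adhesion, hemidesmosome and tetraspanin partners, basement membrane partners, collagen processing, other ligands and receptors) and the rule for named genes were chosen with earlier results of these data known. The rule took genes called without the block, the 8 largest changes called per comparison with the block, and the 5 highest in mean FPKM per family; other genes were named by role, and up to 3 genes per list. The fits were tested on simulated data. Python 3.11.15, pandas 2.3.3, numpy 2.4.6 and matplotlib 3.10.9 were used. Counts cover all 34 tested genes, of which 1 is not reported here by name or plotted.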

Additional observations from a re-analysis of the deposited data

Results flagged for a closer look

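The KO lines differed from each other in vehicle, by the test of that difference with the replicate block, for COL6A2 (1.17 higher in KO1 on the log2 scale), COL6A1 (1.17), LAMB3 (1.15), LAMA3 (1.12), COL12A1 (0.92), ITGA5 (0.89) and COL4A5 (0.79). The sides that libraries took relative to the control line also set the lines apart, a pattern that was not tested. COL12A1 and COL16A1 had both KO1 vehicle libraries above and both KO2 vehicle libraries below both control libraries, with KO1 minus KO2 at 0.92 and 0.47.

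With bortezomib, both pairs of KO1 and both pairs of KO2 moved in opposite directions for COL12A1 (KO1 minus KO2 response -0.50), COL4A1 (-0.46) and ITGAV (-0.22). Some of these moves were small. The ratio of bortezomib to vehicle was 0.997 in the KO1 first pair of ITGAV and 1.03 in its KO2 R2 pair. It was 1.05 in the KO2 R2 pair of COL12A1. For ITGB2 both control pairs were higher with bortezomib and all 4 KO pairs lower, a difference of -0.17 between responses. These differences between KO1 and KO2 were not tested, and the interaction test of KO against control did not call ITGB2 (limma with the block, adjusted p = 0.825).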

How the results depend on the processing

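The replicate block changed the member counts most. Against 0, 0, 0, 1, 0 and 0 calls without it (bortezomib in control, KO1 and KO2, KO mean in vehicle and in bortezomib, KO1 against KO2), the block by title suffix gave 16, 15, 15, 10, 14 and 7. With unnumbered libraries as R1 the counts were 14, 14, 12, 14, 14 and 7, and with voom and the block 17, 16, 17, 13, 15 and 14 (over all genes 4574, 4022, 4033, 1240, 1541 and 748 of 12194). The single call without the block, ITGA11, was lost (0 calls) with a pseudocount of 0.1, with no filter, with quantile normalization and in each fit without 1 library (0 to 0). With 1 library left out, the block by title suffix gave 4 to 18, 8 to 15, 5 to 16, 0 to 12, 0 to 14 and 0 to 8. With unnumbered libraries as R1 it gave 6 to 14, 8 to 19, 6 to 13, 9 to 13, 8 to 15 and 0 to 10 (for KO1 against KO2, 2 without the KO2 vehicle first library). The interaction stayed at 0 in all of these. NFE2L1 passed the threshold with the block (-2.73), with unnumbered as R1 (-2.57), with a common FPKM sum (-2.60) and with voom and the block (-2.79), and ranged from -3.09 to -2.05 without 1 library. Of 77 single-gene results 73 kept their direction in every setting. The exceptions, in fits without the block that left out 1 library, were the bortezomib changes of COL4A5 (-0.83 to 0.0022) and COL4A6 (-1.14 to 0.057) in the control line, highest without control vehicle R2, and in KO2 of LAMB2 (-1.08 to 0.012), highest without KO2 vehicle R2, and COL18A1 (-1.22 to 0.16), highest without the KO2 bortezomib first library. The cause of these changes was not tested. A lone library left in a group was assumed to vary like the other groups.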

Other observations

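Matrix genes outside the 3 families also separated the KO lines. SPARC, a collagen-binding matricellular protein, was at 1.76 and 1.47 FPKM in control vehicle, 0.552 and 0.524 in KO1 and 26.6 and 29.9 in KO2. KO1 was thus below and KO2 above the control line, so the called difference of the KO mean (1.36; limma without the block, SE 0.20, adjusted p = 0.0297) describes neither line. The difference of KO1 from KO2 was -4.25 (limma without the block, SE 0.24, adjusted p = 0.000102), and SPARC was among the 8 genes called in that comparison. FN1, the fibronectin gene, was at 8.25 and 26.8 FPKM in KO1 vehicle and 25.2 and 80.2 in KO2, against 17.2 and 32.2 in the control line. Its difference was -1.52 with the block (SE 0.17, adjusted p = 0.00224) and was not called without it. BCAM, a laminin receptor, was at 9.81 and 19.7 in KO1 and 22.8 and 41.8 in KO2, a difference of -1.10 with the block (limma, SE 0.17, adjusted p = 0.011). Other genes of these lists were higher in KO1, all with the block: the collagen-modifying P3H3 (0.70), P4HA1 (0.69) and P4HA2 (0.66), and tenascin TNC (0.93; limma, adjusted p 0.0319, 0.0487, 0.0421 and 0.0474).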
